A study of Zea mays with 6 samples.

Results

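A group of 175 genes shared a pattern inside both genotypes of a maize stem data set: each was high in 1 library of the zmte1-2 mutant and in 1 library of the wild type (WT), and low in the others. The genes were selected on the measured values. A gene was taken when its FPKM (fragments normalised for transcript length and for library size) in zmte1-2 library 2 was at least 2 times that in zmte1-2 libraries 1 and 3, its FPKM in WT library 1 was at least 2 times that in WT libraries 2 and 3, and at least 1 of the 6 values reached 5. This took 175 of the 5546 genes in the deposited table, 3.16%, and 5.52% of the 3170 genes that reached 5 FPKM. The within-genotype differences of these genes are therefore a description and were not tested.

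The mutant zmte1-2 carries a recessive chemically induced change that puts a premature stop codon in ZmTE1, which encodes a Mei2-like RNA-binding protein, and it was backcrossed to the inbred B73, which served as the WT. Stem nodes of field-grown seedlings were taken 28 days after germination, and RNA was sequenced from 3 zmte1-2 and 3 WT libraries. The labels and the study's results describe nodes together with internodes, while its methods describe nodes. Neither says whether the library numbers stand for separate plants or for positions along the stem, so p-values measure the spread between these libraries, which may be technical or anatomical.

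The function lists with the highest share of members were transcription factors of the AP2/ERF family, JAZ repressors of jasmonate signalling, jasmonate-inactivating enzymes, and SAUR genes of the auxin response. Jasmonate is a lipid-derived hormone of wounding and defence, and JAZ proteins hold its target genes silent until the hormone triggers their breakdown. AP2/ERF factors include the DREB1 proteins of the cold and drought response and the ERF proteins of the ethylene and wound response. Auxin induces SAUR genes, which promote cell expansion, and Aux/IAA genes, whose proteins repress the auxin response.

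The libraries did not resemble each other equally. Across the 5546 listed genes, log2 FPKM correlated at Pearson's r = 0.944 between zmte1-2 libraries 1 and 3, but at 0.782 and 0.699 between zmte1-2 library 2 and those libraries. WT libraries 2 and 3 correlated at 0.948, and WT library 1 with them at 0.87 and 0.894. The correlation between zmte1-2 library 2 and WT library 1 was 0.761, and with WT libraries 2 and 3 it was 0.774 and 0.708. Pairs of the other zmte1-2 libraries with a WT library ran from 0.602 to 0.808. These are correlations across genes of a table that holds only genes called different between the genotypes by its authors, and sequencing depth is unknown. ZmTE1 itself (GRMZM2G085113) was at 0.33, 0.1 and 0.49 FPKM in zmte1-2 libraries 1, 2 and 3, against 0.51, 1.19 and 1 FPKM in WT libraries 1, 2 and 3. Its mean was lower in zmte1-2, and the genotypes did not overlap, though only 0.49 and 0.51 FPKM parted them. All zmte1-2 libraries also lay below all WT libraries in 48.8% of listed genes. In each genotype, ZmTE1 was lowest in the library in which the 175 genes were high. Its values were at most 1.19 FPKM, so this order is no result about ZmTE1.

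The 175 genes summed to 1144, 14628 and 702 FPKM in zmte1-2 libraries 1, 2 and 3, against 4806, 1183 and 976 FPKM in WT libraries 1, 2 and 3. All listed genes summed to between 87963 and 88628 FPKM in zmte1-2 and between 74348 and 86256 FPKM in WT. The median gene of the group stood at 1.58, 25.8 and 1.16 FPKM in zmte1-2 and at 10.9, 2.58 and 2.31 FPKM in WT. The log2 excess, taken as log2(FPKM + 0.5) of the high library minus the mean of the other two, had a median of 3.58 for zmte1-2 library 2 and of 1.68 for WT library 1, against -0.01 and 0.2 over all listed genes. The median excess was thus larger in zmte1-2 library 2 than in WT library 1. In bulk RNA, more cells of a type and more RNA per cell cannot be told apart.

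**Figure D1:**
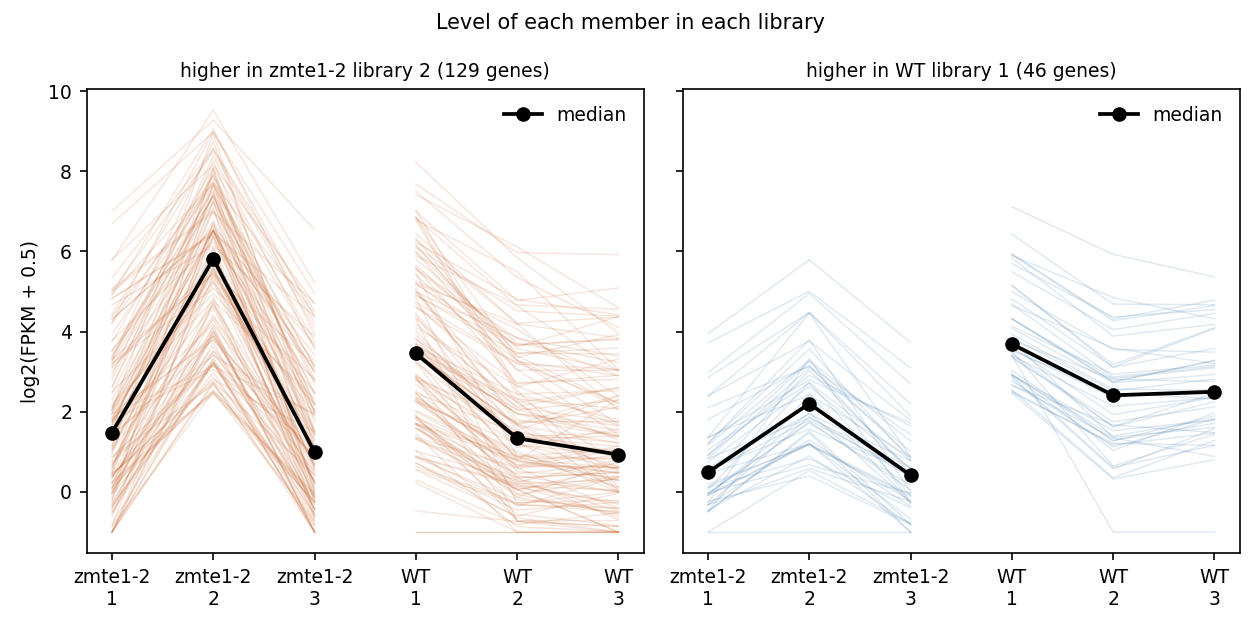
Each thin line is 1 of the 175 genes, with log2(FPKM + 0.5) on the vertical axis and the zmte1-2 libraries left of the WT libraries on the horizontal axis, and black points are medians. The 129 genes in the left panel were higher in zmte1-2 library 2 than in WT library 1, and the 46 genes in the right panel were higher in WT library 1.

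The zmte1-2 side of the rule was the looser one. Of the 3170 genes with at least 5 FPKM, 745 (23.5%) met it and 214 (6.75%) met the WT side. The members were 23.5% of the 745 genes and 81.8% of the 214 genes. The opposite pattern, with zmte1-2 library 2 and WT library 1 each at least 2-fold below the other libraries of its genotype, took 255 genes that reached 5 FPKM. Across the 175 genes, the excess in zmte1-2 library 2 and that in WT library 1 had a Pearson's r of 0.527, which is a description over genes that share their libraries and were selected for both.

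**Figure D2:**
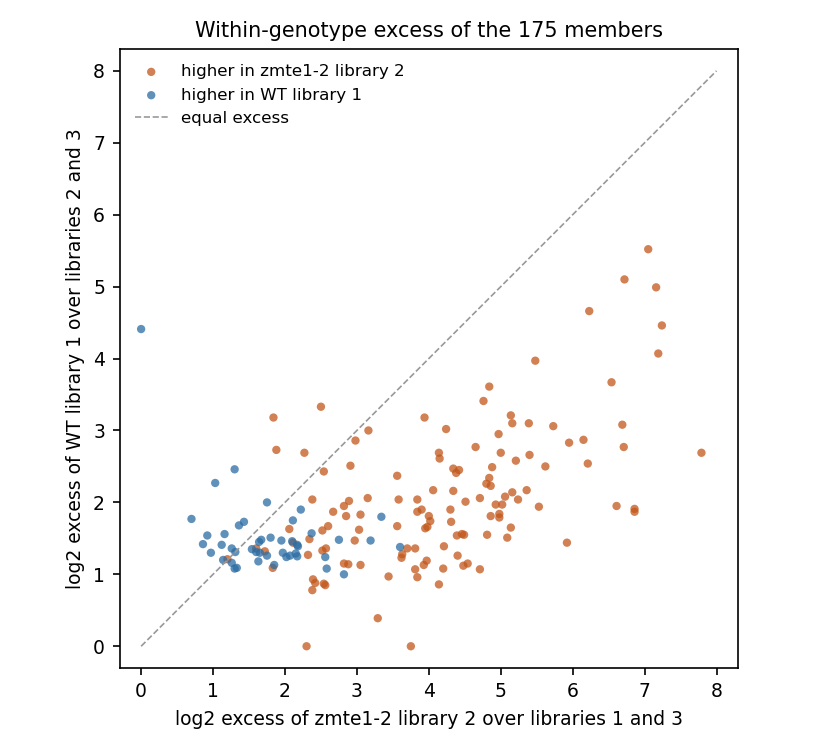
Each point is 1 of the 175 genes, with the log2 excess of zmte1-2 library 2 on the horizontal axis, that of WT library 1 on the vertical axis, and a dashed line of equal excess. Genes higher in zmte1-2 library 2 reach an excess of 7.79 on the horizontal axis, while the highest WT excess is 5.52.

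Members near the edge of the rule show how it was drawn. The 3 with the smallest ratios that passed were AC208916.3_FG003 (smallest ratio 2.0), GRMZM2G408537 (2.008) and the Aux/IAA gene GRMZM2G031615 (2.011). The 3 nearest outside were GRMZM2G035848 (1.984), the ethylene-responsive element binding protein gene GRMZM2G173771 (1.974) and the SAUR gene GRMZM5G835903 (1.966). A further 3 members met a side only because all of its values were 0: GRMZM2G353822 was listed at 10.16 FPKM in WT library 1 and at 0 in the others, GRMZM2G031102 at 6.21 FPKM in zmte1-2 library 2 alone, and GRMZM2G090411 at 0.86, 6.19 and 0.85 FPKM in zmte1-2 and 0, 0 and 0 FPKM in WT. The other 172 genes were above 0 in both high libraries. After median-of-ratios rescaling of the libraries, 109 genes met the rule in place of 175.

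JAZ and TIFY repressor genes made up 4 of the 10 listed genes of that list with at least 5 FPKM, against 5.52% of all listed genes at that level. GRMZM2G036351 (TIFY28, also ZIM4; chromosome 9, 150514712 to 150515694) had 128, 619 and 92.8 FPKM in zmte1-2 and 299.9, 56.8 and 15.1 FPKM in WT, values given for libraries 1, 2 and 3 in that order here and below. Its neighbouring relatives on chromosome 1, GRMZM2G145412 (TIFY9; 244885427 to 244886628) and GRMZM2G145458 (TIFY10; 244892947 to 244893692), lay 6319 bases apart and had the same pattern. Coordinates are as deposited, and no source used here names their build. GRMZM2G145412 had 103, 503 and 30.5 FPKM in zmte1-2 and 170.2, 68.5 and 23.7 FPKM in WT. GRMZM2G145458 had 9.81, 183 and 3.51 FPKM in zmte1-2 and 79.6, 9.31 and 3.88 FPKM in WT. GRMZM2G343157 (TIFY1) had 19.2, 93.1 and 7.58 FPKM in zmte1-2 and 26.2, 8.8 and 4.18 FPKM in WT. All 4 were higher in zmte1-2 library 2 than in any WT library, and all 4 stayed lower in WT libraries 2 and 3 than in WT library 1.

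Other steps of the jasmonate pathway were divided. The CYP94 cytochromes P450, which oxidise the active jasmonate conjugate and so inactivate it, gave 2 members, out of 6 listed genes of jasmonate inactivation (33.3%). Of all listed genes of at least 5 FPKM, 5.52% were members. The 6 together did not follow the members, with sums of 294, 273 and 209 FPKM in zmte1-2 and 88.9, 81.2 and 45.4 FPKM in WT and a median log2 excess of -0.22 in zmte1-2 library 2 and -0.33 in WT library 1. GRMZM2G159179 (CYP94C1) had 28.0, 87.1 and 20.4 FPKM in zmte1-2 and 42.3, 7.8 and 2.18 FPKM in WT, and GRMZM2G424804, of the same orthology, had 8.71, 43.4 and 8.51 FPKM in zmte1-2 and 17.7, 4.15 and 1.22 FPKM in WT. Of jasmonate synthesis, 1 of the 10 genes with at least 5 FPKM was a member, the lipoxygenase gene GRMZM2G104843 (ts1, tasselseed1), which is required for the male fate of the tassel. It had 17.96, 235 and 11.7 FPKM in zmte1-2 and 36.4, 17.7 and 13.9 FPKM in WT. The 13 listed genes of jasmonate synthesis as a whole summed to 5920, 990 and 5220 FPKM in zmte1-2 and to 782, 2170 and 1970 FPKM in WT, so their sum was lowest in the libraries where the members were highest. The 12 listed JAZ and TIFY genes summed to 483, 1750 and 271 FPKM in zmte1-2 and to 655, 270 and 131 FPKM in WT. These sums include the 4 members, which were selected for being high in zmte1-2 library 2 and WT library 1. The order of the sums is therefore no separate pattern of the family. A further member, GRMZM2G019806 (bHLH137), whose orthology is the jasmonate transcription factor MYC2, had 3.66, 37.6 and 2 FPKM in zmte1-2 and 10.6, 4.5 and 1.95 FPKM in WT.

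The AP2/ERF factors were the most numerous class, with 15 members of 35 listed genes at 5 FPKM or more (42.9%). Of all listed genes at that level, 5.52% were members. All 15 were higher in zmte1-2 library 2 than in WT library 1, and their median log2 excess was 4.98 in zmte1-2 library 2 and 2.23 in WT library 1. GRMZM2G369472, an AP2 domain gene, had 1.69, 250.5 and 1.13 FPKM in zmte1-2 and 115, 5.3 and 0.59 FPKM in WT. GRMZM2G020054 (ERF098) had 14.9, 202 and 8.08 FPKM in zmte1-2 and 69.96, 10.5 and 10.4 FPKM in WT. GRMZM2G137341 had 1.43, 153 and 0.64 FPKM in zmte1-2 and 14.5, 2.67 and 0.5 FPKM in WT. In these genes the low libraries lay between 0.5 and 14.9 FPKM, and the high ones reached 250.5 FPKM. Among members with the largest smallest ratio, GRMZM2G069082 (EREB36) had 0.35, 93.02 and 0.43 FPKM in zmte1-2 and 19.4, 0.11 and 0.05 FPKM in WT. GRMZM2G138396 (ERF109-like) had 0.05, 59.05 and 0.24 FPKM in zmte1-2 and 6.82, 0.1 and 0.05 FPKM in WT, and both were near 0 outside the high libraries.

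The DREB1 and CBF genes, regulators of the cold response, formed a subset of this class. GRMZM2G042756 (DREB1D) had 3.4, 93.9 and 2.2 FPKM in zmte1-2 and 10.02, 4.35 and 0.53 FPKM in WT. GRMZM2G124037 (DREB1H) had 0, 15.7 and 0 FPKM in zmte1-2 and 1.55, 0.05 and 0 FPKM in WT, and GRMZM2G124011 (EREB65, a CBF gene 4271 bases away on chromosome 2) had 0.08, 9.03 and 0 FPKM in zmte1-2 and 3.22, 0.11 and 0.11 FPKM in WT. Both of these chromosome 2 neighbours were at or near 0 in the low libraries. GRMZM2G097081 (DREB1G) had 0, 5.96 and 0.05 FPKM in zmte1-2 and 0.67, 0 and 0 FPKM in WT, and GRMZM2G097182 (DREB1F) had 0.88, 5 and 0.35 FPKM in zmte1-2 and 2, 0.78 and 0.12 FPKM in WT. The DRE-binding factor GRMZM2G380377 (DBP4) had 0.9, 67.99 and 0.16 FPKM in zmte1-2 and 9.45, 0.92 and 0.8 FPKM in WT. Of 35 tested AP2/ERF genes of the table, members or not, 6 were lower and 0 were higher in zmte1-2 than in WT at an adjusted p under 0.05 in limma, against 34.2% and 6.02% of all tested genes, and at an unadjusted p under 0.05 the counts were 10 and 1.

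Other lists of transcription factors had fewer members. The MYB list had 5 members of 33 (15.2%) and the C2H2 zinc finger list 2 of 7 (28.6%), against 5.52% of all listed genes of at least 5 FPKM. The WRKY and bHLH lists had 1 each of 22 (4.55%) and 29 (3.45%), and the NAC list none of 17. The bHLH list, matched by words, missed at least 2 members described as HLH proteins, GRMZM2G019806 (bHLH137, given above) and GRMZM2G414252 (bHLH20), which had 1.16, 8.58 and 0.73 FPKM in zmte1-2 and 3.18, 0.28 and 0.8 FPKM in WT. Among the MYB genes, GRMZM2G115070 (MYBR95) had 33.1, 129.5 and 7.6 FPKM in zmte1-2 and 50, 10.1 and 4.11 FPKM in WT, and GRMZM2G415077 (MYBR45), 55166 bases away on chromosome 1, had 0.78, 16.6 and 0 FPKM in zmte1-2 and 2.24, 0 and 0 FPKM in WT. Their orthology was that of the clock factor LHY. RADIALIS-like 3 (GRMZM2G139174), a small MYB protein, went the other way between the high libraries, at 0.33, 9.53 and 0.33 FPKM in zmte1-2 and 14.8, 5.42 and 5.29 FPKM in WT. The bHLH gene GRMZM2G301089 was among the 10 members of highest level, at 20.98, 376 and 18.1 FPKM in zmte1-2 and 115, 24.4 and 7.56 FPKM in WT. Of the C2H2 pair described as ZAT6, GRMZM2G113860 had 2.29, 24.9 and 1.11 FPKM in zmte1-2 and 7.19, 1.08 and 1.72 FPKM in WT, and AC185108.3_FG011 had 0.27, 8.78 and 0 FPKM in zmte1-2 and 2.51, 0.46 and 0.18 FPKM in WT.

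**Figure D3:**
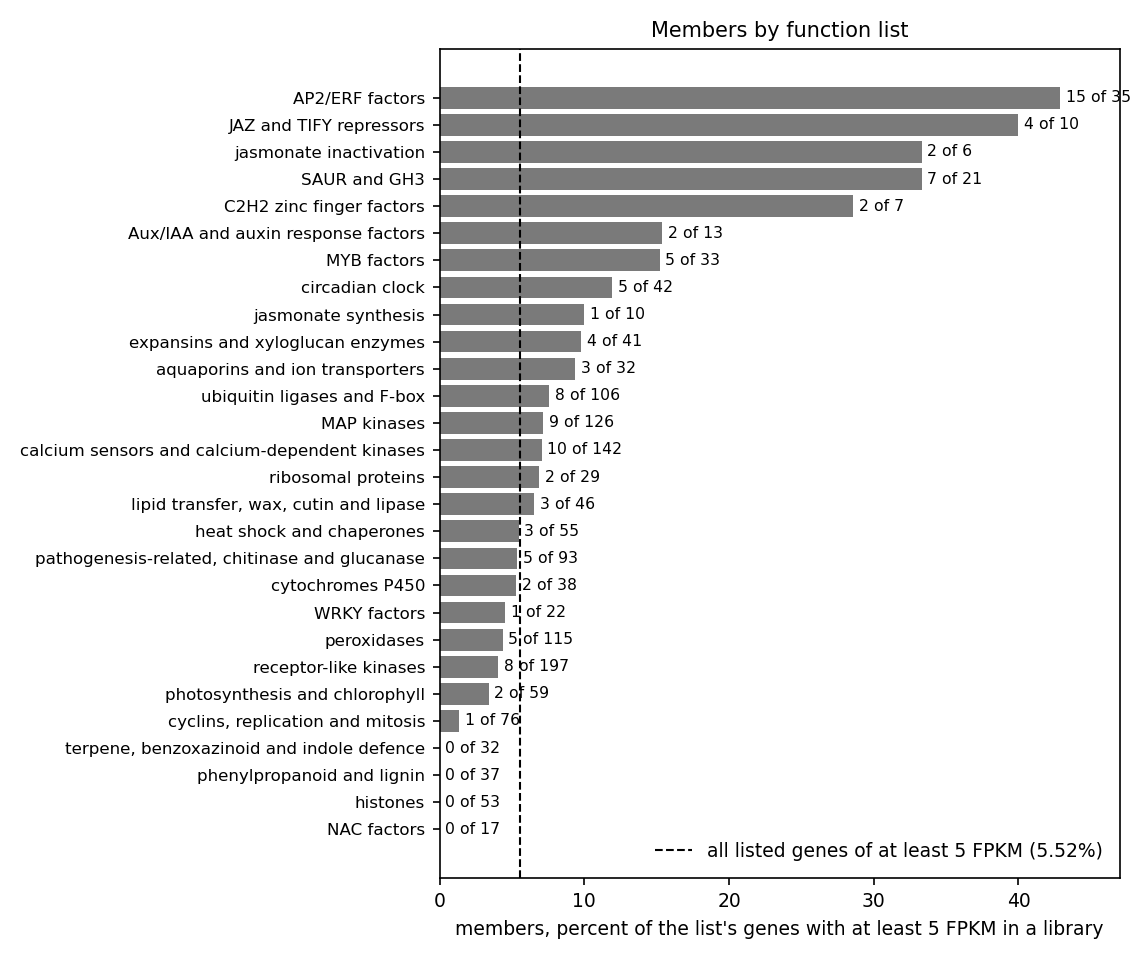
Bars give members as a percent of the genes of each function list with at least 5 FPKM in a library, with the counts beside them, and the dashed line marks the 5.52% of all listed genes at that level. AP2/ERF factors, JAZ and TIFY repressors, jasmonate inactivation, and SAUR and GH3 genes lie furthest to the right, and histones, phenylpropanoid genes and NAC factors have no member.

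Some calcium-sensor genes were among the most contrasted members. The calcium list had 10 members of 142 (7.04%), near the 5.52% of all listed genes of at least 5 FPKM. Of the 10 members, 2 matched by protein description and the rest by orthology terms alone. GRMZM2G474755, of the calmodulin-like orthology, had 0.86, 137 and 0.18 FPKM in zmte1-2 and 28.3, 0.32 and 0.5 FPKM in WT, and GRMZM2G426046 (CML31) had 0.55, 104 and 0.59 FPKM in zmte1-2 and 6.42, 1.04 and 1.57 FPKM in WT. The touch-induced calmodulin-related gene GRMZM2G097900 had 2.86, 91.02 and 2.37 FPKM in zmte1-2 and 25.3, 4.5 and 3.72 FPKM in WT. All 3 were under 5 FPKM in the low libraries. Of the genes matched by the orthology of calcium-dependent protein kinases, GRMZM2G037189 had 29.7, 535 and 14.7 FPKM in zmte1-2 and 180.3, 40.3 and 16.7 FPKM in WT, and GRMZM2G172485 had 3.82, 169 and 1.31 FPKM in zmte1-2 and 13.5, 3.87 and 5.58 FPKM in WT. A calcium pump gene of the plasma membrane, GRMZM2G144420, had 0.33, 15.3 and 0.17 FPKM in zmte1-2 and 1.37, 0.3 and 0.26 FPKM in WT, and the cation/calcium exchanger 1 gene GRMZM2G340578 had 0.21, 12.6 and 0.13 FPKM in zmte1-2 and 4.51, 0.77 and 0.91 FPKM in WT.

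Members of the kinase lists were mostly higher in zmte1-2 library 2, as were 129 of all 175 members (73.7%). The MAP kinase list had 9 members of 126 (7.14%, against 5.52% of all listed genes at that level), 8 of them higher in zmte1-2 library 2 and 1 in WT library 1. Only 3 of the 9 matched by protein description. The others matched by orthology terms alone, among them GRMZM2G019806 (bHLH137), GRMZM2G426046 (CML31) and genes of chitinase orthology such as GRMZM2G006676. GRMZM2G404078 (a MAP kinase kinase kinase A-like gene) had 27.9, 84.7 and 9 FPKM in zmte1-2 and 38.04, 16.2 and 4.75 FPKM in WT. The neighbouring genes on chromosome 6, AC204050.4_FG006 (described as NPK1) and GRMZM2G476477 (described as YODA), lay 12347 bases apart. Both, like GRMZM2G404078, had the orthology of MAP kinase kinase kinase 17/18. AC204050.4_FG006 had 24.9, 70.3 and 14.2 FPKM in zmte1-2 and 36.7, 9.21 and 2.74 FPKM in WT, and GRMZM2G476477 had 8.68, 33.2 and 6.58 FPKM in zmte1-2 and 9.63, 3.67 and 2.07 FPKM in WT. In all 3, both high libraries stood above every low library of either genotype. Receptor-like kinases had 8 members of 197, 4.06%, under the background of 5.52%, 6 of them higher in zmte1-2 library 2 and 2 in WT library 1. One of those 2 is also in the MAP kinase list, GRMZM2G081857, a probable inactive receptor kinase of ERECTA orthology, with 1.39, 7.03 and 2.63 FPKM in zmte1-2 and 13.9, 5.25 and 6.52 FPKM in WT. GRMZM2G355572, described as a CACTA transposon protein but of a receptor kinase orthology, had 9.39, 429.6 and 2.83 FPKM in zmte1-2 and 109, 4.91 and 2.98 FPKM in WT. GRMZM2G037015, of the same orthology, had 9.31, 239 and 4.09 FPKM in zmte1-2 and 71.7, 9.07 and 6.96 FPKM in WT, and the proline-rich kinase PERK7 gene GRMZM2G374074 had 1.91, 83.7 and 0.97 FPKM in zmte1-2 and 33.4, 2.75 and 0.93 FPKM in WT.

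A few cell wall genes were among the steepest contrasts, while the wall lists as a whole did not follow them. Xyloglucan endotransglucosylase/hydrolases cut and rejoin the xyloglucan chains that tether cellulose. Of these, AC210669.3_FG001 (protein 14) had 3.61, 490.5 and 2.25 FPKM in zmte1-2 and 131, 5.65 and 9.47 FPKM in WT, and GRMZM2G392125 (protein 15) had 2.44, 269 and 1.77 FPKM in zmte1-2 and 15.8, 2.08 and 1.7 FPKM in WT. In both, zmte1-2 library 2 stood above every other library by a wide margin. The expansin and xyloglucan list had 4 members of 41 (9.76%). Its 60 listed genes had a median log2 excess of -0.65 in zmte1-2 library 2 and 0.04 in WT library 1. The list of cellulose, pectin and other wall enzymes had 1 member of 65 (1.54%), against 5.52% of all listed genes at that level. GRMZM2G107003, of xyloglucan glycosyltransferase orthology, belonged to the other class, at 1.82, 11.3 and 1.25 FPKM in zmte1-2 and 44.5, 16.1 and 21.5 FPKM in WT. The trehalose-phosphate phosphatase 7 gene GRMZM2G174396 had 1.07, 57.2 and 0.68 FPKM in zmte1-2 and 13.7, 2.03 and 1.51 FPKM in WT.

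Lists of defence and protein turnover had shares of members near that of all listed genes, 5.52%. The pathogenesis-related, chitinase and glucanase list had 5 of 93 (5.38%), and the ubiquitin ligase and F-box list 8 of 106 (7.55%). GRMZM2G006676, similar to a pathogenesis-related protein 1-like protein, had 18.2, 508 and 19.8 FPKM in zmte1-2 and 127, 26.9 and 33.5 FPKM in WT. It overlaps AC177946.2_FG004, on the other strand of chromosome 1, which had 12.97, 272 and 13.04 FPKM in zmte1-2 and 86.6, 17.99 and 20.02 FPKM in WT, and how reads were counted is not stated, so the values of this pair may share reads. The E3 ubiquitin ligase gene RMA1 (GRMZM2G078526) was higher in WT library 1, at 14.9, 54.9 and 12.7 FPKM in zmte1-2 and 138, 60.4 and 40.7 FPKM in WT. GRMZM2G077809, of E3 ubiquitin ligase orthology, had 8.23, 151 and 7.27 FPKM in zmte1-2 and 29.6, 10.5 and 11.6 FPKM in WT, and the U-box gene GRMZM2G127690 had 0.48, 28.5 and 0.24 FPKM in zmte1-2 and 4.3, 0.99 and 1.41 FPKM in WT. Ubiquitin ligase and F-box genes were thus split, with 4 members higher in each of the high libraries.

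The abscisic acid list and the list of ethylene synthesis and receptors had 1 member each. GRMZM2G417954 (viviparous-14), a 9-cis-epoxycarotenoid dioxygenase of abscisic acid synthesis, had 2.68, 48.2 and 1.05 FPKM in zmte1-2 and 10.5, 2.71 and 3.83 FPKM in WT. GRMZM2G054361 (ACS6), an ethylene synthesis gene, had 1.59, 19.2 and 0.4 FPKM in zmte1-2 and 4.68, 1.35 and 0.59 FPKM in WT. The heat shock and chaperone list had 3 members of 55 (5.45%). Among them, the HSPRO1-like gene GRMZM2G123394 is described as a nematode resistance gene and matched by its name alone. It had 2.6, 149 and 2.49 FPKM in zmte1-2 and 21.6, 2.41 and 4.72 FPKM in WT. The AAA-ATPase gene GRMZM5G819464, of mitochondrial chaperone orthology, had 3.65, 127 and 2.33 FPKM in zmte1-2 and 31.4, 4.19 and 5.56 FPKM in WT, and the DnaJ co-chaperone gene GRMZM2G086841 had 13.2, 74.9 and 6.24 FPKM in zmte1-2 and 23.8, 8.67 and 7.83 FPKM in WT. The peroxidase list had 5 members of 115 (4.35%). GRMZM2G381404, of peroxidase orthology, had 1.78, 177 and 0.52 FPKM in zmte1-2 and 8.86, 2.02 and 2.12 FPKM in WT, and GRMZM2G080689 (Peroxidase 52) had 1.82, 13.4 and 0.5 FPKM in zmte1-2 and 27.7, 8.14 and 11.5 FPKM in WT. The pair differed in which high library was the higher. The aquaporin and ion transporter list had 3 members of 32 (9.38%). Among them, GRMZM2G305446 (TIP3-1, a water channel of the vacuolar membrane) had 0.45, 3.45 and 0.33 FPKM in zmte1-2 and 5.09, 1.82 and 1.74 FPKM in WT. The lipid transfer, wax, cutin and lipase list had 3 members of 46 (6.52%). Among them, GRMZM2G104626 is described as senescence-associated protein 15 and is of 3-ketoacyl-CoA synthase orthology. It had 3.08, 59.8 and 1.52 FPKM in zmte1-2 and 12.6, 3.62 and 4.39 FPKM in WT.

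Auxin response genes were mostly in the class higher in WT library 1. The SAUR and GH3 list had 7 members of 21 (33.3%), against 5.52% of all listed genes of at least 5 FPKM. Of the 7, 6 were higher in WT library 1 and 1 in zmte1-2 library 2. GRMZM2G015049, of SAUR orthology, had 3, 8.44 and 0.88 FPKM in zmte1-2 and 51.5, 20.1 and 22.97 FPKM in WT, and GRMZM2G012636 (SAUR55) had 0.3, 1.96 and 0.28 FPKM in zmte1-2 and 9.98, 2.58 and 4.26 FPKM in WT. The exception, GRMZM2G146108 (SAUR71), had 0.65, 36.5 and 0.43 FPKM in zmte1-2 and 12.4, 1.24 and 4.47 FPKM in WT. A run of 4 SAUR genes on chromosome 2 lay within neighbouring gaps of 2983, 74810 and 52565 bases, and near-identical copies may share reads. GRMZM2G156451 (SAUR61), in this run, had 0.88, 1.8 and 0.13 FPKM in zmte1-2 and 10.9, 1.07 and 2.21 FPKM in WT, and GRMZM2G042765 (SAUR36-like) had 0.47, 2.87 and 0.54 FPKM in zmte1-2 and 7.05, 2.39 and 2.96 FPKM in WT. The Aux/IAA gene GRMZM5G825707 (IAA27) had 0.22, 4.95 and 0.33 FPKM in zmte1-2 and 13.3, 6.52 and 6.26 FPKM in WT, and GRMZM2G031615 had 0.79, 7.71 and 0.96 FPKM in zmte1-2 and 17.01, 7.17 and 8.46 FPKM in WT. Both were lower in zmte1-2 libraries 1 and 3 than in every WT library. Across the list of 24 tested SAUR and GH3 genes, 9 were lower and 1 was higher in zmte1-2 at an adjusted p under 0.05 in limma, and of 15 tested Aux/IAA and auxin response factor genes, 7 were lower and 1 was higher, against 34.2% and 6.02% of all tested genes.

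**Figure D4:**
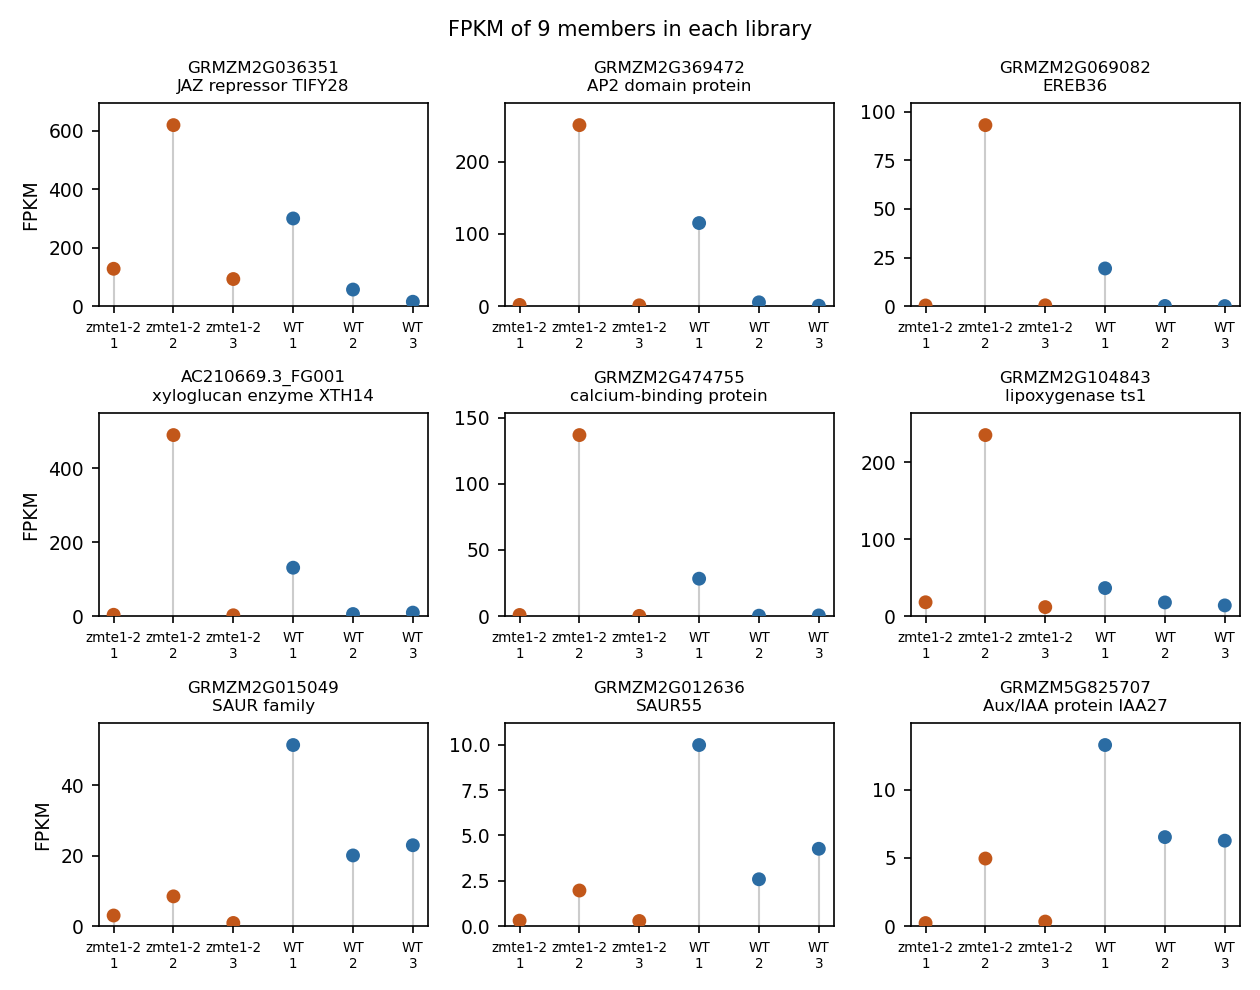
FPKM on a linear axis from 0 in each library, with the zmte1-2 libraries (orange) left of the WT libraries (blue), for 9 members. In 6 of the 9 panels zmte1-2 library 2 is highest, and in those of GRMZM2G015049, SAUR55 and IAA27 WT library 1 is highest.

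Genotype differences were compared next. The rule does not compare genotypes, but the high libraries it uses enter each genotype mean. Of the 5546 listed genes, 5509 were at least 2-fold apart in the means of these values, and so were all 175 members, in a table of genes that its authors called different. Of the 175, 129 had the higher mean in zmte1-2 and 46 the lower, against 1946 and 3600 of all listed genes. These are the same 129 and 46 as the split by the high libraries, so the split restates those libraries and is a description. By the mean log2 level of the other libraries, 60 members were higher and 113 lower in zmte1-2. Among all listed genes, 1768 were higher and 3767 lower by that measure. In the limma fit over all 3987 tested genes, 15 of the 141 tested members (10.6%) were lower and 0 were higher in zmte1-2 at a Benjamini-Hochberg adjusted p under 0.05, against 34.2% lower and 6.02% higher among all tested genes. At an unadjusted p under 0.05 in limma, 25 members were lower and 2 were higher, against 2133 and 441 of all tested genes. The other 34 members did not reach 1 FPKM in 3 libraries and were not tested. The wide spread within each genotype, which the rule asks for, enters the test, so the share under the background is no result about the genes.

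The call counts rested on single libraries. Leaving out zmte1-2 library 1 or 3, or WT library 1, 2 or 3, gave 0, 1, 0, 10 and 0 members lower and 0 higher in each case. Among all 3987 tested genes, the same refits gave 1, 701, 148, 1015 and 2 lower and 1, 74, 10, 164 and 1 higher. Leaving out zmte1-2 library 2 gave 48 of 141 members lower and 0 higher, against 1949 and 805 of all tested genes. Lower calls thus fell or rose among members where they did in the whole table, though not in proportion. Higher calls among members stayed at 0. The rule selects for a high zmte1-2 library 2 and a high WT library 1, so leaving out either changes the members by design. Median-of-ratios rescaling moved the median log2 fold change of all tested genes to -0.09, against -1.08 as deposited, and left 0 members lower and 1 higher. The scaling factors came from the listed genes alone, of which 3600 of 5546 had the lower mean in zmte1-2. Such factors bring the median difference towards 0 by construction, so this refit cannot decide the direction. A direction between the genotypes is given here on the deposited scale only.

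The 15 members lower in zmte1-2 were all in the class higher in WT library 1. That class holds the members with the lower mean in zmte1-2, so this was all but fixed in advance. The strongest by p was GRMZM2G113888, a TCP factor gene, with 0.44, 1.78 and 0.37 FPKM in zmte1-2 and 11.2, 4.63 and 5.4 FPKM in WT, a log2 fold change of -2.53 (SE 0.52) and an adjusted p of 0.0193 in limma. GRMZM2G015049, the SAUR gene given above, had a log2 fold change of -3.06 (SE 0.74) and a limma adjusted p of 0.0273. GRMZM2G012636 (SAUR55) had -2.22 (SE 0.63) and a limma adjusted p of 0.0371. All 3 had every zmte1-2 library below every WT library. GRMZM2G178686 had 0.35, 0.82 and 0.07 FPKM in zmte1-2 and 7.7, 1.94 and 2.78 FPKM in WT. GRMZM2G003944, of TCP orthology, had 0.3, 1 and 0.35 FPKM in zmte1-2 and 7.1, 1.55 and 3.42 FPKM in WT, and GRMZM2G160268, of light-harvesting orthology, had 1.58, 6.1 and 1.22 FPKM in zmte1-2 and 34.9, 8.54 and 16.6 FPKM in WT. These 3 were highest in WT library 1. GRMZM2G147809, of E3 ubiquitin ligase orthology, had 0.58, 1.28 and 0.26 FPKM in zmte1-2 and 7.03, 2.13 and 3.04 FPKM in WT, and the 60S ribosomal protein L22 gene GRMZM2G146573 had 0.23, 1.37 and 0.07 FPKM in zmte1-2 and 7.16, 1.92 and 3.22 FPKM in WT. The G2-like factor gene GRMZM5G887276 had 0.3, 3.17 and 0.79 FPKM in zmte1-2 and 11.02, 5.02 and 4.51 FPKM in WT. The limma adjusted p of the 10 of smallest p was between 0.0193 and 0.041. Of all 175, 17 had all zmte1-2 libraries below all WT libraries and 2 had them above, against 48.8% and 11.4% of listed genes.

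The libraries outside the rule's high ones were then compared, zmte1-2 1 and 3 with WT 2 and 3, which the rule compared only within a genotype. In that limma fit, 51 of 141 members (36.2%) were lower and 11 (7.8%) higher in zmte1-2, against 44.8% and 18.9% of all tested genes. Of the 44 tested members higher in WT library 1, 43 were lower, and of the 97 tested members higher in zmte1-2 library 2, 8 were lower and 11 higher. Since the class follows the sign of the difference in means that put a gene in the table, this split has no independent test. The median log2 difference between those libraries was -1.82 in the class of 46 and -0.06 in the class of 129, while in the high libraries it was -1.5 and 1.97.

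**Figure D5:**
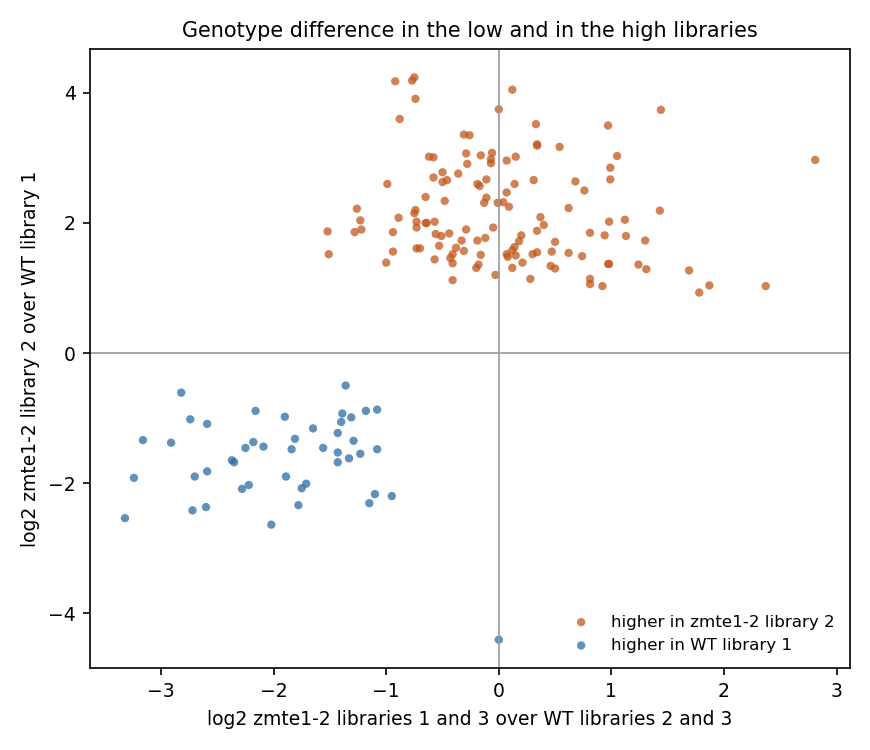
Each point is 1 of the 175 genes, with the log2 ratio of zmte1-2 libraries 1 and 3 to WT libraries 2 and 3 on the horizontal axis and that of zmte1-2 library 2 to WT library 1 on the vertical axis. Blue genes sit below 0 vertically and, but for 1 gene at 0, below 0 horizontally, and orange genes lie on both sides of 0 horizontally.

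Some features that the rule did not use were compared with those of all listed genes. The members had a median gene span of 1247 bases, against 2045 over all listed genes and 2162 over those of at least 5 FPKM. Of the members, 86.3% had 1 annotated transcript, against 70.0% and 63.2%. A transcription factor family was given for 22 members (12.6%), against 7.43% of listed genes and 6.62% of those of at least 5 FPKM. Most of the 22 were AP2/ERF factors, so this share is not separate from that class. A protein description without information was given for 84 members (48.0%), close to the 45.7% of listed genes.

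Marker lists of other tissue states did not follow the members in zmte1-2, where each had its lowest sum in library 2, in places by a small margin. In WT, the photosynthesis, histone and cyclin lists had their highest sum in library 1, and the others did not. Photosynthesis and chlorophyll genes summed to 786, 569 and 665 FPKM in zmte1-2 and 2170, 732 and 1380 FPKM in WT, so they were high in WT library 1 and not in zmte1-2 library 2. Histone genes summed to 4200, 3970 and 6320 FPKM in zmte1-2 and 13700, 8220 and 13000 FPKM in WT. Cyclin, replication and mitosis genes summed to 714, 617 and 768 FPKM in zmte1-2 and 1250, 904 and 985 FPKM in WT, and homeobox and meristem genes to 566, 257 and 447 FPKM in zmte1-2 and 401, 327 and 409 FPKM in WT. Phenylpropanoid and lignin genes summed to 1930, 1170 and 2430 FPKM in zmte1-2 and 551, 1100 and 1140 FPKM in WT, so they were lowest in the libraries where the members were high. Genes encoded in the organelles were at most 6.45 FPKM in sum. The part of tissue composition, sampling position or handling in the members' pattern was not tested.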

How the data were processed

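RNA of 28-day-old maize nodes was sequenced in 3 zmte1-2 and 3 WT libraries. The authors deposited 1 table of 5546 genes, in which FPKM values were computed by the authors for each library. Genes not in the table were not analysed here, and adjustment covers the listed genes. No source used here gives the aligner, the counting method, the build or the read depth. Columns holding genotype means, log2 ratios, p-values and q-values of the authors' own comparisons were not used. The labels give an RNA kit where the methods give another reagent, and they write the mutant as a zmet1 line. Replicate numbers were taken from the library names.

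FPKM were read in Python 3 and tested on log2(FPKM + 0.5) with limma 3.58.1 in R 4.3.3 (lmFit, then eBayes with its trend option; two-sided) for the 3987 genes with at least 1 FPKM in at least 3 libraries. Calls needed an adjusted p (Benjamini-Hochberg, all tested genes) under 0.05. The fit was checked on simulated data. A fold change on this scale understates the change of low genes.

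Function lists, 47 in all, were matched on the deposited protein description, KEGG orthology and factor family, with upper and lower case told apart, so some spellings were missed. Gene symbols came from RefSeq records of the assembly Zm-B73-REFERENCE-NAM-5.0, used for names only, and 145 of the 175 members matched. The members and the lists were chosen with earlier results of these data known. Genes named in the text were the 10 of highest FPKM, the 10 with the largest smallest ratio, the 3 of highest FPKM in each list with at least 3 members, the 10 called members of smallest p and those at the edge of the rule; genes with uninformative descriptions were left out in places, and further genes, such as ts1, the DREB1 genes and the hormone synthesis genes, were chosen after their values were seen. Alternatives covered the rule, the pseudocount, the filter, the scaling, the trend, the threshold, the block and each library left out.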

Additional observations from a re-analysis of the deposited data

How the results depend on the processing

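With a fold of 1.5 or 3 in place of 2, the rule took 364 or 87 genes, and after median-of-ratios rescaling 109, of which 108 were among the 175. An FPKM minimum of 1 or 10, and 0.5 FPKM added before the ratio, gave 225, 137 and 144 genes. The median log2 excess stayed between 3.11 and 4.0 for zmte1-2 library 2 and between 1.26 and 1.95 for WT library 1 under 3 alternatives. Of 15 lists with at least 3 members, 11 had a count by case-sensitive description alone that was smaller by more than 1.5 times.

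In limma, 1363 tested genes were lower and 240 higher in zmte1-2, and of members 15 and 0. A mean FPKM of at least 5 gave 533 and 121, with 3 and 0 members. Without an FPKM minimum, 1228 genes were lower and 194 higher, with 9 and 1 members. Median-of-ratios rescaling, with factors from the listed genes alone, gave 206 and 532, with 0 and 1 members. The study's threshold gave 1887 and 407, with 25 and 2 members. Leaving out zmte1-2 library 2 together with WT library 1 gave 1788 and 755, with 51 and 11 members. Leaving out 1 library at a time gave 1 to 1949 lower and 1 to 805 higher, with 0 to 48 members lower and none higher. With the library number as a replicate block, 1 gene was lower and 1 higher, and 0 members either way. The numbers were not taken to pair the libraries, since deviations from the group means of same-numbered libraries correlated at -0.29, -0.379 and 0.355. The cause of these changes was not tested. The 10 named called members kept their sign in all of 133 refits that gave a value and passed the threshold in 71. The motif search of promoters was not run, because no promoter sequence was used here. Depth is unknown, so no interval for counting error was given.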

Other observations

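Among the 74 members in no function list, the largest log2 excess of zmte1-2 library 2 was that of GRMZM2G059397, a tetraspanin-8-like gene of a family of membrane organisers, with 0.38, 208 and 0.51 FPKM in zmte1-2 libraries 1, 2 and 3 and 11.04, 1.3 and 1.27 FPKM in WT libraries 1, 2 and 3. Its excess, 7.79 in zmte1-2 library 2, was the largest of the 175, and that in WT library 1 was 2.69. GRMZM5G819965, an uncharacterized gene, had 0.94, 263 and 1.6 FPKM in zmte1-2 and 43.1, 1.35 and 1.62 FPKM in WT, with a log2 excess of 7.24 in zmte1-2 library 2 and 4.46 in WT library 1. GRMZM2G023237, a glutaredoxin gene, had 7.58, 91.1 and 3.56 FPKM in zmte1-2 and 24.1, 5.98 and 7.05 FPKM in WT. The src2-like gene GRMZM2G423917 had 30.2, 209 and 21.1 FPKM in zmte1-2 and 74.6, 27.4 and 20.9 FPKM in WT. The tetraspanin, glutaredoxin and src2-like genes were chosen after their values were seen. GRMZM2G066428, a transmembrane amino acid transporter gene, is in a list and had 31.8, 357 and 16.4 FPKM in zmte1-2 and 78.0, 17.8 and 3.62 FPKM in WT.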
